A study of Homo sapiens with 4 samples.

Results

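The genes described here are the transcription factor NRF2 (gene symbol NFE2L2), its inhibitor KEAP1 and 8 genes widely used as readouts of NRF2 activity, HMOX1, NQO1, GCLC, GCLM, SRXN1, FTH1, FTL and OSGIN1. They were chosen by name, and all 10 were found among the 25609 genes of the deposited table. The cells were HK-2, labelled wild type, a human line derived from kidney proximal tubule and immortalised by genes of a papillomavirus. Total RNA gave 4 libraries, 2 of controls and 2 of cells treated with transforming growth factor β1 (TGF-β1), a cytokine that drives matrix production in tubular cells. The labels give 1 protocol for all 4 samples, with 24 h without serum, TGF-β1 at 20 ng/mL for 24 h, and the uridine analogue 4-thiouridine (4SU) at 100 μM for the last 20 h. It was assumed that the controls lacked TGF-β1 alone, so that serum withdrawal and 4SU are shared by both groups. No label says that replicates were separate cultures, so p-values reflect the spread among 4 libraries, and that spread may be only technical.

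NRF2 is a basic leucine zipper factor that is made continuously and destroyed continuously: KEAP1 holds it in a CUL3 ubiquitin ligase that marks it for the proteasome. Oxidants and electrophiles modify cysteines of KEAP1, newly made NRF2 then escapes, pairs with a small MAF protein and binds antioxidant response elements near genes of glutathione, quinone, haem and iron metabolism. BACH1, a repressor released by haem, occupies many of the same elements. Because NRF2 is controlled mainly as a protein, its mRNA level is not a measure of its activity, and NRF2 protein was not analysed here. In the kidney the pathway is known for limiting oxidative injury of tubular cells.

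The antioxidant response element has the core TGACNNNGC, where N is any base. It was searched on both strands of RefSeq promoter windows (GRCh38.p14), which run from 250 bases before to 50 bases after a transcript start. Windows were found for 8 of the 10 genes, with HMOX1 and FTH1 not matched. The core occurred in 13.3% of the 35116 windows of the whole table. Among these genes it occurred in GCLM, once, and in 1 of the 2 windows of KEAP1, where it occurred at 2 positions. The related AP-1 word TGANTCA, which can overlap the element, occurred in 7.71% of all windows and here in OSGIN1 alone. The matches are shown with 10 bases on each side, read 5′ to 3′ on the strand of the gene, with the match in capitals and positions counted from the transcript start.
GCLM, -34 to -26 (chr1:93909446-93909474, minus strand): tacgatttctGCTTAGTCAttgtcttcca
KEAP1, -54 to -46 (chr19:10502807-10502835, minus strand): acttttattgTGACACGGCgggcgcccgg
KEAP1, -31 to -23 (chr19:10502784-10502812, minus strand): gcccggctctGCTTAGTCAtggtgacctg
OSGIN1, -97 to -91 (chr16:83953133-83953159, plus strand): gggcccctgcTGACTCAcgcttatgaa
GCLM and the second KEAP1 match carry the same 9 letters, the element on the opposite strand. A match describes the letters only, and windows without one may have elements farther away.

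The deposited unit is RPKM, a read count divided by exon length and by library size. Whole reads could be recovered from these values, and summed to 3336648 and 4801595 in control replicates 1 and 2 and to 4638735 and 5451639 in TGF-β1 replicates 1 and 2. Mitochondrial genes took 8.79% to 9.82% of them. Of 16 tubule and epithelial markers, 10 were expressed highly enough to be tested, and 3 of these rose (KRT8, KRT18 and CDH2) and 4 fell with TGF-β1 (PAX8, KRT19, EPCAM and DPP4). PAX8 went from 44.8 and 42.2 to 15.5 and 14.7 RPKM, and DPP4, a brush-border peptidase, from 13.3 and 14.4 to 7.998 and 7.483 RPKM. The 6 markers not tested, PAX2, AQP1, SLC34A1, CUBN, ANPEP and MME, were at 0.460 RPKM or less. The summed level of 5 leukocyte markers was 1.71 to 2.28 RPKM in controls and 1.32 to 2.15 RPKM with TGF-β1, that of 3 endothelial markers 0.105 to 0.107 and 0.139 to 0.194 RPKM, and 1 erythroid marker, HBA1, had at most 1 read. CDH5, VWF and TYROBP had 0 reads in all 4 libraries. Of 8 fibroblast markers, COL1A1 rose, from 5.21 and 5.17 to 21.4 and 24.3 RPKM (log2 2.04, limma adjusted p = 0.00197), and LUM, the other marker tested, measured 12.1 and 12.9 RPKM in controls and 8.76 and 6.74 with TGF-β1 (log2 difference -0.67, limma adjusted p = 0.0567). The other 6 were at 0.250 RPKM or less, and the sum of all 8 was 17.9 to 18.6 RPKM in controls and 30.5 to 31.5 RPKM with TGF-β1. The part of these marker differences in the results below was not tested.

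The comparison asks whether 24 h of TGF-β1 changed the mRNA of the NRF2 axis. None of the 10 genes passed the test (0 higher and 0 lower, limma, adjusted p below 0.05 over all 16590 genes tested), where 9.12% of all tested genes passed, 6.12% higher and the others lower. At an unadjusted p below 0.05 there were 3, HMOX1, NFE2L2 and OSGIN1, where 25.0% of all genes were, and with limma-voom on the recovered reads 4 passed, where 20.4% did. HMOX1 had the highest difference, at 1.79 times the controls, and SRXN1 the lowest, at 0.410 times the controls, on 3 to 16 reads per library. The 10 genes did not share a direction: 3 had a positive and 7 a negative difference, with a median of -0.17 on the log2 scale, beside 0.03 for all genes tested. In 7 of the 10 the groups did not overlap, 3 with TGF-β1 higher and 4 lower, where 54.1% of all tested genes had groups that did not overlap, 29.5% with TGF-β1 higher and 24.6% lower. Log2 differences are of log2(RPKM + 0.5), a scale that understates the change of weakly expressed genes, unless limma-voom or another pseudocount is named. Values given as times the controls are ratios of mean RPKM, with nothing added. In these bulk samples, fewer cells of a kind and less RNA per cell cannot be told apart.

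**Figure D1:**
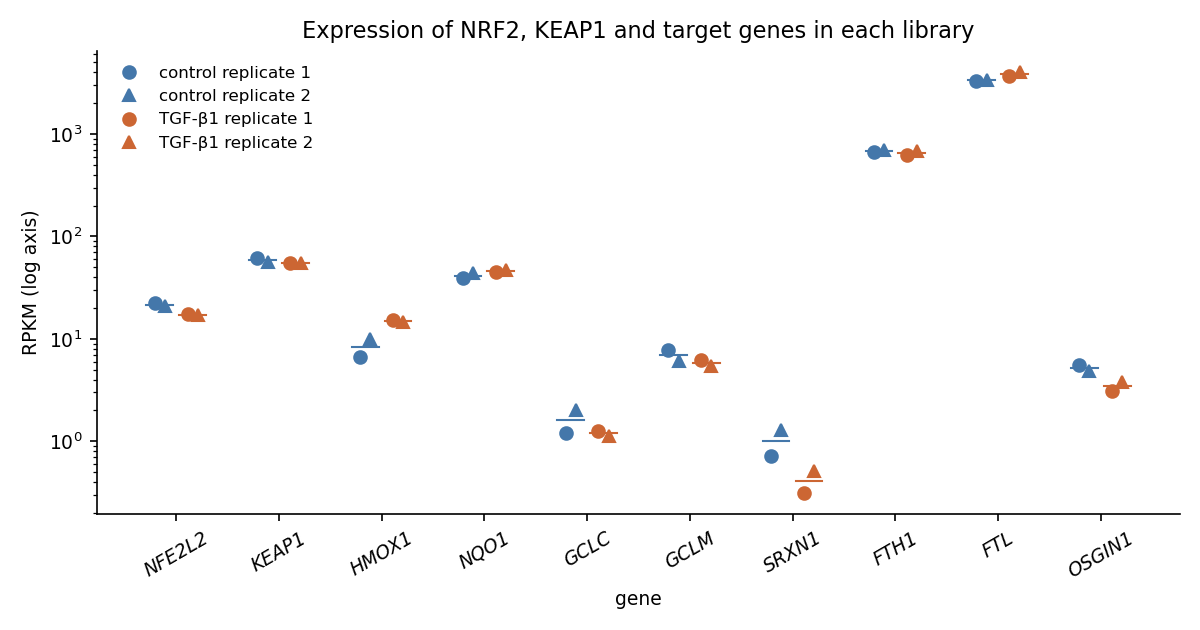
RPKM (log axis) of the 10 genes in each of the 4 libraries, with circles for replicate 1, triangles for replicate 2 and a short line at each group mean. The ferritin genes FTH1 and FTL lie far above the rest, GCLC and SRXN1 lie lowest, and the groups stand clearly apart for HMOX1.

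The 10 genes span a wide range of levels. Among the control means of all tested genes, the percentile was 99.9 for FTL, 99.7 for FTH1, 96 for KEAP1, 94.1 for NQO1, 87.8 for NFE2L2, 71.8 for HMOX1, 68.1 for GCLM, 61.7 for OSGIN1, 31.7 for GCLC and 19.2 for SRXN1. KEAP1 and NQO1 were thus abundant per kilobase of exon in untreated cells, and GCLC was not. In the controls the neighbours HMOX1 (6.68 and 9.95 RPKM) and GCLM (7.75 and 6.14) overlapped, as did GCLC (1.202 and 2.02) and SRXN1 (0.710 and 1.30). All other neighbours in the order stood apart in both controls. With TGF-β1 the order by group mean was the same, and no neighbours overlapped.

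NFE2L2 (ENSG00000116044.15, hg38 chromosome 2, 177227595 to 177392697, minus strand) encodes NRF2 itself. It measured 22.2 and 21.0 RPKM in the controls and 17.4 and 17.2 RPKM with TGF-β1, on 449, 589, 431 and 483 reads. Both TGF-β1 libraries lay below both controls, and the libraries of a group were close to each other. The mean went from 21.6 ± 0.844 to 17.3 ± 0.135 RPKM (SD, n = 2 per group), 0.800 times the controls. On the log2 scale it differed by -0.31 (standard error 0.08, 95% confidence interval -0.51 to -0.12, limma adjusted p = 0.0754). It passed when libraries were scaled by total recovered reads (-0.49, limma adjusted p = 0.0323) and after quantile normalisation (-0.43, limma adjusted p = 0.0473), where 9.27% and 8.34% of all genes passed. In all, NFE2L2 passed in 3 of 15 alternatives. Without the variance trend it did not pass (limma adjusted p = 0.229). With 1 library left out the difference was -0.35 to -0.27. An annotated gene on the same strand, AC019080.1, overlaps 17.6% of the exon bases of NFE2L2 and had 5 to 14 reads per library.

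KEAP1 (ENSG00000079999.13, chromosome 19, 10486120 to 10503741, minus strand), the adaptor that presents NRF2 to the ubiquitin ligase, measured 62.1 and 56.1 RPKM in the controls and 55.1 and 55.6 RPKM with TGF-β1. The groups did not overlap, but control replicate 2 lay within 1 RPKM of both TGF-β1 libraries. The fitted log2 difference was -0.09 (standard error 0.07, interval -0.28 to 0.10, limma adjusted p = 0.512). Its size was unstable: it was -0.02 without control replicate 1 and -0.16 without control replicate 2. The scaling moved it further, to -0.30 after quantile normalisation (limma adjusted p = 0.0916) and -0.27 with total recovered reads (0.114), and it passed in none of these. Within a library KEAP1 was 2.80 and 2.67 times NFE2L2 in the controls and 3.17 and 3.24 times NFE2L2 with TGF-β1, in RPKM. This ratio was higher in both TGF-β1 libraries and was not tested. A factor common to all genes of a library cannot move it, but quantile normalisation can.

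HMOX1 (ENSG00000100292.16, chromosome 22, 35380361 to 35394214, plus strand) encodes haem oxygenase 1, which opens the haem ring to give biliverdin, carbon monoxide and free iron. It measured 6.68 and 9.95 RPKM in the controls and 15.3 and 14.5 RPKM with TGF-β1, on 54, 112, 152 and 164 reads. Both TGF-β1 libraries lay above both controls, and the spread was in the controls, where replicate 1 was the lower. The mean went from 8.32 ± 2.31 to 14.9 ± 0.517 RPKM (SD, n = 2 per group), a ratio of 1.79. In log2 terms HMOX1 differed by 0.83 (standard error 0.19, 95% confidence interval 0.34 to 1.32, limma adjusted p = 0.0646). Leaving out control replicate 2 gave 1.10 and a call (limma adjusted p = 0.0125, 6.86% of all genes called), and leaving out control replicate 1 gave 0.56 without one (limma adjusted p = 0.0577). Among genes with a mean of at least 2 RPKM it passed (limma adjusted p = 0.0427), where 16.8% of genes did. HMOX2, the constitutive haem oxygenase, measured 8.05 and 8.05 RPKM in the controls and 7.45 and 7.03 RPKM with TGF-β1 (log2 difference -0.14, limma adjusted p = 0.471). The inducible gene was at 0.830 and 1.24 times HMOX2 in the controls and at 2.05 and 2.07 times HMOX2 with TGF-β1. HMOX2 was named outside the rule given below. The ratio was neither planned nor tested, and it rests on the same HMOX1 values.

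NQO1 (ENSG00000181019.12, chromosome 16, 69706996 to 69726951, minus strand) encodes a quinone reductase and is among the most used NRF2 readouts. It measured 39.5 and 43.5 RPKM in the controls and 44.7 and 47.2 RPKM with TGF-β1. The groups did not overlap, but TGF-β1 replicate 1 was nearer to control replicate 2 than to the other TGF-β1 library. Its log2 difference was 0.15 (standard error 0.08, interval -0.05 to 0.35, limma adjusted p = 0.331), and it was 0.08 without control replicate 1 and 0.22 without control replicate 2. Its sign depended on the scaling: it was -0.01 after quantile normalisation and -0.03 when libraries were scaled by total recovered reads. The library sizes that the deposited values imply were 1.02 and 0.979 times the recovered reads in the controls and 0.896 and 0.864 times with TGF-β1, so the deposited scaling itself moved with the groups.

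GCLC and GCLM encode the catalytic and the modifier subunit of glutamate-cysteine ligase, the enzyme that limits glutathione synthesis. GCLC (ENSG00000001084.10, chromosome 6, 53497341 to 53616970 in another version of the gene model, minus strand) measured 1.202 and 2.02 RPKM in the controls and 1.27 and 1.12 RPKM with TGF-β1, on 34, 80, 44 and 44 reads. Control replicate 1 lay between the TGF-β1 libraries, so the groups overlapped. For GCLC the log2 difference was -0.30 with an interval of -1.0034 to 0.41 (limma adjusted p = 0.574). It was -0.58 without control replicate 1, -0.01 without control replicate 2 and -0.45 with limma-voom on the recovered reads. GCLM (ENSG00000023909.9, chromosome 1, 93885205 to 93909456, minus strand) measured 7.75 and 6.14 RPKM in the controls and 6.15 and 5.39 RPKM with TGF-β1. Its groups also overlapped, with control replicate 2 and TGF-β1 replicate 1 at nearly the same value. For GCLM it was -0.24 with an interval of -0.64 to 0.16 (limma adjusted p = 0.421). It was -0.09 without control replicate 1, -0.40 without control replicate 2, and -0.16 without TGF-β1 replicate 2. Scaling by total recovered reads gave -0.41. In each library GCLM exceeded GCLC, by 6.45 and 3.04 times in the controls and 4.86 and 4.83 times with TGF-β1. The 2 controls lay on either side of the TGF-β1 libraries in this ratio. The interval of GCLC was wide and held 0, so neither a fall nor a rise within it is excluded.

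SRXN1 (ENSG00000271303.1, chromosome 20, 646615 to 653370, minus strand) encodes sulfiredoxin, which returns over-oxidised peroxiredoxins to their working form. It measured 0.710 and 1.30 RPKM in the controls and 0.312 and 0.512 RPKM with TGF-β1, on 6, 16, 3 and 6 reads. The groups did not overlap, but both rest on few reads. SRXN1 differed by -0.70 on the log2 scale, with an interval of -1.54 to 0.13 (limma adjusted p = 0.269). The size moved in both directions, from -0.42 without control replicate 2 to -0.99 without control replicate 1, -1.09 with a pseudocount of 0.1 and -1.31 with limma-voom (adjusted p = 0.117). The value is uncertain for another reason: AL121758.1, annotated on the same strand, covers 85.0% of the exon bases of SRXN1 and shares 84.7% of the 50-base words of its transcripts. No source used here says how reads in such overlaps were counted. AL121758.1 is absent from the deposited table, so its reads cannot be given.

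**Figure D2:**
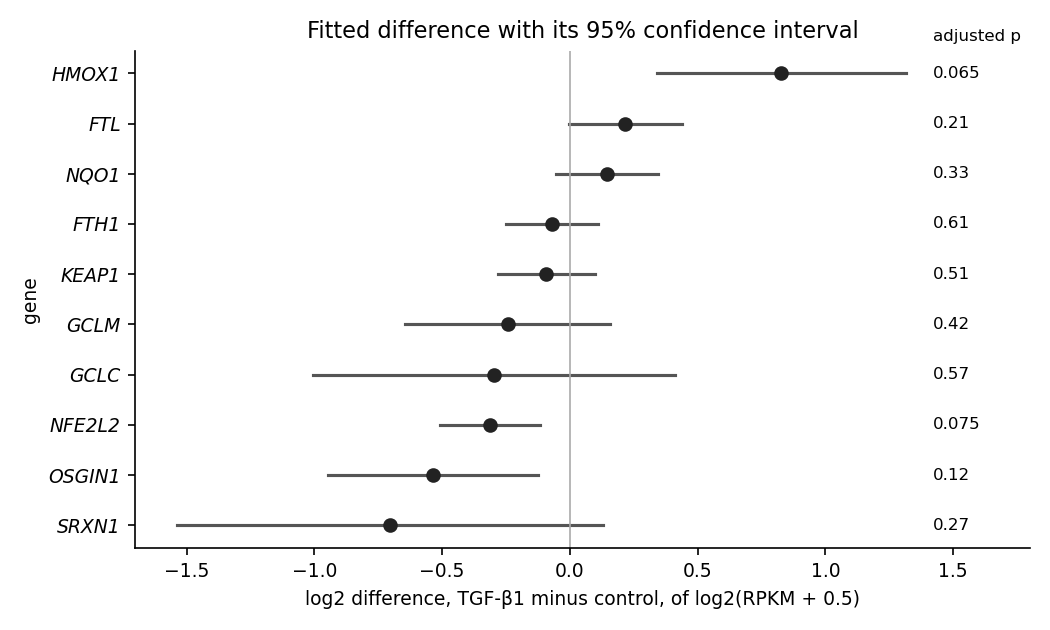
Fitted log2 difference (TGF-β1 minus control, points) with its 95% confidence interval (lines) for the 10 genes, ordered by the difference, with the adjusted p at the right. The intervals of HMOX1, NFE2L2 and OSGIN1 lie on 1 side of 0, and none of the adjusted p values is below 0.05.

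FTH1 and FTL encode the heavy and light chains of ferritin, the shell that stores iron. The heavy chain oxidises the iron that enters, and the light chain helps to lay down the mineral core. Translation of both mRNAs is held back by iron regulatory proteins when iron is scarce, so mRNA levels need not follow protein. FTL (ENSG00000087086.14, chromosome 19, 48965301 to 48966878, plus strand) measured 3333 and 3364 RPKM in the controls and 3731 and 4054 RPKM with TGF-β1. Both TGF-β1 libraries lay above both controls. This gave a log2 difference of 0.22 (standard error 0.09, interval -0.01 to 0.44, limma adjusted p = 0.209), and it was 0.05 after quantile normalisation and 0.04 when libraries were scaled by total recovered reads. FTH1 (ENSG00000167996.15, chromosome 11, 61959718 to 61967660, minus strand) measured 673 and 697 RPKM in the controls and 627 and 680 RPKM with TGF-β1. Its groups overlapped, with TGF-β1 replicate 2 between the controls. FTH1 differed by -0.07 on the log2 scale, with an interval of -0.25 to 0.11 (limma adjusted p = 0.608). Leaving out TGF-β1 replicate 1 gave -0.01, leaving out TGF-β1 replicate 2 gave -0.13, and leaving out control replicate 2 gave -0.04. FTH1 was called lower after quantile normalisation (-0.33, limma adjusted p = 0.00573) and when scaled by total recovered reads (-0.25, limma adjusted p = 0.0336).

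Set against each other within a library, both chains gave a ratio that varied little in a group. FTL was 4.95 and 4.83 times FTH1 in the controls and 5.95 and 5.96 times FTH1 with TGF-β1, in RPKM. The ratio was higher in both TGF-β1 libraries and was not tested. A factor common to all genes of a library cannot move it, but quantile normalisation can. Both genes have processed copies elsewhere in the genome, and 19.9% of the 50-base words of FTH1 and 18.3% of those of FTL also occur in other genes. The 14 annotated FTH1 copies in the table held 0.494% to 0.703% of the reads of FTH1 and its copies, and the 3 FTL copies 0.242% to 0.412%. Adding those reads left the log2 differences at -0.07 for FTH1 and 0.22 for FTL. BEST1, on the opposite strand, overlaps 62.4% of the exon bases of FTH1 and had 2 to 6 reads per library.

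**Figure D3:**
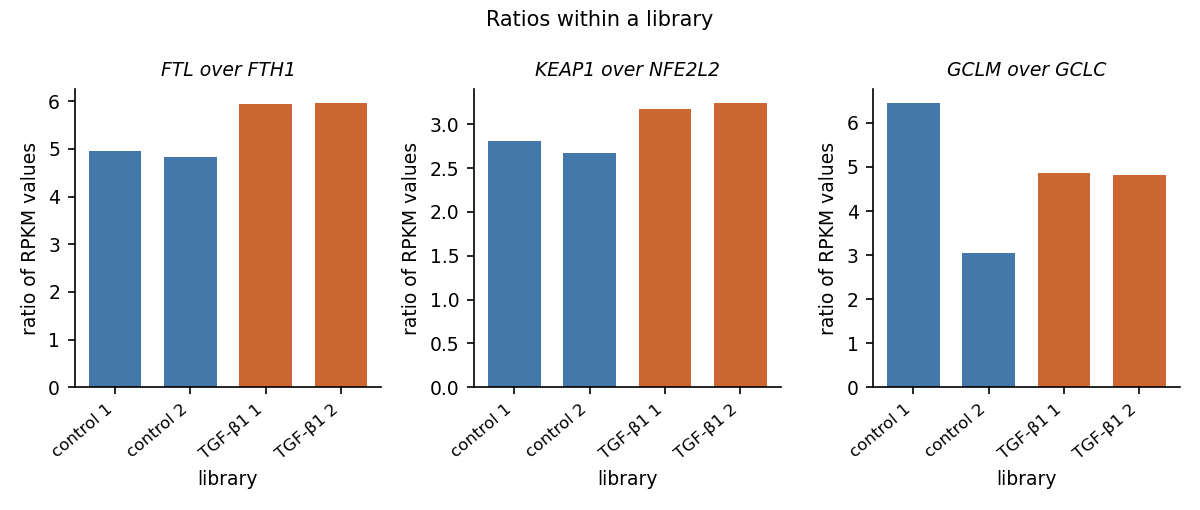
Ratio of RPKM values within each library for FTL over FTH1, KEAP1 over NFE2L2 and GCLM over GCLC (bars start at 0; blue for controls, orange for TGF-β1). FTL over FTH1 and KEAP1 over NFE2L2 are higher in both TGF-β1 libraries, whereas the controls enclose the TGF-β1 libraries for GCLM over GCLC.

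OSGIN1 (ENSG00000140961.12, chromosome 16, 83948282 to 83966332, plus strand), a growth inhibitor induced by oxidative stress, measured 5.50 and 4.89 RPKM in the controls and 3.09 and 3.77 RPKM with TGF-β1, on 64, 79, 44 and 61 reads. Both TGF-β1 libraries lay below both controls. The mean went from 5.19 ± 0.431 to 3.43 ± 0.481 RPKM (SD, n = 2 per group), 0.661 times the controls. OSGIN1 differed by -0.54 on the log2 scale (standard error 0.16, 95% confidence interval -0.95 to -0.13, limma adjusted p = 0.116). AC009119.2, on the same strand, overlaps 13.9% of its exon bases and had 0 to 2 reads per library.

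How many of the 10 genes passed depended on the method. When limma-voom was applied to the recovered reads, which weights each value by its read count, 4 genes were called: HMOX1 (limma-voom adjusted p = 0.000438) and FTL (0.00244) higher, and NFE2L2 (0.0145) and OSGIN1 (0.0444) lower. This alternative was chosen after the data were seen. The size of each difference was nearly the same in it, at 0.83 for HMOX1, 0.22 for FTL, -0.32 for NFE2L2 and -0.58 for OSGIN1. This fit kept the library sizes that the deposited values imply, so the likeness in size is no check of the scaling.

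**Figure D4:**
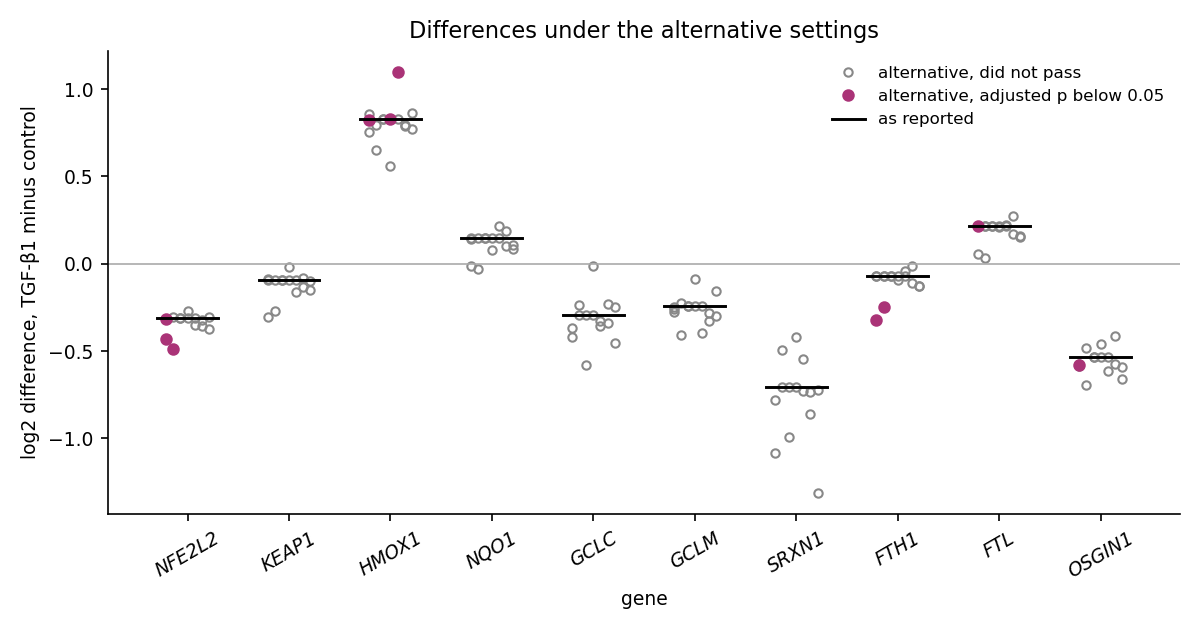
Log2 difference (TGF-β1 minus control) of each of the 10 genes as reported (line) and under each alternative setting (points, filled where the adjusted p is below 0.05). HMOX1 stays between 0.56 and 1.10 and NFE2L2 between -0.49 and -0.27, whereas NQO1 lies on both sides of 0.

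The genes around the pathway were taken from 8 lists, 139 genes with each counted once and the 10 genes above left out. Of the 120 that could be tested, 9 rose and 10 fell (15.8% called), where 1015 of all 16590 genes rose (6.12%) and 498 fell. The share called was higher among better expressed genes. Of the 105 list genes with a mean of at least 2 RPKM, 24 were called, 11 higher and 13 lower. Of all 10440 such genes 1750 were called (16.8%), a lower share than in the lists. The lists were not tested as sets. With scaling by total recovered reads 7 rose and 17 fell (20.0% called), where 655 genes rose and 883 fell (9.27% called). The median log2 difference of the lists was 0.00, beside 0.03 for all genes. These shares are also the background of each list below. Among 22 regulators, 1 rose and 2 fell (median 0.02). SQSTM1, the autophagy receptor p62 that binds KEAP1, fell from 120 and 113 RPKM in the controls to 75.7 and 76.2 RPKM (log2 -0.62, limma adjusted p = 0.00793). PGAM5, a mitochondrial phosphatase that binds KEAP1, fell from 25.9 and 29.9 to 18.3 and 19.5 RPKM (log2 -0.55, limma adjusted p = 0.0335), a call lost without control replicate 2 (limma adjusted p = 0.0689), TGF-β1 replicate 1 (0.113) or TGF-β1 replicate 2 (0.0876). SESN2, a sestrin, rose from 27.1 and 28.1 to 43.7 and 43.3 RPKM (log2 0.65, limma adjusted p = 0.00844). CUL3, the ligase scaffold, and BACH1, the competing repressor, did not pass, with log2 differences of 0.04 and -0.32; both were named after their values were seen.

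Of 15 tested genes of glutathione metabolism and amino acid supply, 4 rose and 0 fell (median 0.14), where 6.12% of all genes rose. SLC1A5, a glutamine carrier, went from 91.0 and 101 to 146 and 154 RPKM (log2 0.65, limma adjusted p = 0.0109). GPX3, a secreted glutathione peroxidase, went from 42.6 and 45.8 to 66.1 and 64.2 RPKM (log2 0.56, limma adjusted p = 0.0137, and 0.0527 without TGF-β1 replicate 1). SLC3A2, the partner chain of several amino acid carriers, rose by 0.39 on the log2 scale and GPX1, an intracellular peroxidase named after its values were seen, by 0.36. Neither call held when any 1 library was dropped (limma adjusted p up to 0.102 and 0.129), after quantile normalisation (0.147 and 0.314) or with scaling by total recovered reads (0.0828 and 0.113). SLC7A11, the cystine carrier that pairs with SLC3A2 and a known NRF2 and ATF4 target, measured 0.505 and 0.871 RPKM in the controls and 2.13 and 2.02 RPKM with TGF-β1. Its log2 difference of 1.13 did not pass (limma adjusted p = 0.0627), and it was named after its values were seen. SLC7A11 thus had a positive difference where GCLC and GCLM had negative ones, and none of these 3 passed. With limma-voom on the recovered reads SLC7A11 was called (log2 1.58, limma-voom adjusted p = 1.546e-05), and GCLC and GCLM were not (0.223 and 0.289).

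In the thioredoxin list 1 of 14 tested genes rose and 2 fell (median 0.08). PRDX1, a peroxiredoxin that SRXN1 repairs, rose from 498 and 559 to 842 and 877 RPKM (log2 0.70, limma adjusted p = 0.0108). TXNRD1, thioredoxin reductase and another standard NRF2 target, fell from 41.6 and 44.0 to 32.0 and 33.7 RPKM (log2 -0.38, limma adjusted p = 0.0392), and TXNIP, which binds thioredoxin, fell by 0.27 on the log2 scale (limma adjusted p = 0.0482). Neither fall held when any 1 library was dropped (limma adjusted p up to 0.159 and 0.170). Among 16 tested genes of quinone and carbonyl detoxification, 2 rose and 1 fell (median 0.01). GSTP1, a glutathione transferase, went from 403 and 434 to 663 and 699 RPKM (log2 0.70, limma adjusted p = 0.00821), and GSTO1, another transferase, from 58.5 and 59.1 to 81.3 and 89.5 RPKM (log2 0.53, limma adjusted p = 0.0166, and 0.0635 without TGF-β1 replicate 2). AKR1B1, aldose reductase, fell from 350 and 399 to 235 and 259 RPKM (log2 -0.60, limma adjusted p = 0.0227), a call lost without control replicate 2 (0.0517) or TGF-β1 replicate 1 (0.0536). AKR1C1 and AKR1C2, often used as NRF2 readouts in human cells, had 0 reads in all 4 libraries and were named after their values were seen.

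None of 11 genes of NADPH supply passed (median -0.18). The smallest p was that of TALDO1, transaldolase, which measured 43.0 and 51.1 RPKM in the controls and 64.3 and 64.8 RPKM with TGF-β1 (log2 0.46, limma adjusted p = 0.0527, and 0.0225 without control replicate 2). Of 19 tested genes of haem and iron handling, 1 rose and 1 fell (median -0.07). SLC48A1, a haem carrier of endosomes and lysosomes, fell from 12.97 and 14.6 to 5.21 and 4.86 RPKM (log2 -1.37, limma adjusted p = 0.00496), and STEAP3, a ferrireductase of the transferrin cycle, rose from 8.50 and 8.09 to 15.9 and 16.1 RPKM (log2 0.91, limma adjusted p = 0.00791). Both calls held with each library left out in turn. Quantile normalisation moved several of the called values in these lists by over 1.5 times without ending the call: SLC1A5 to 0.39, GPX3 to 0.35, PRDX1 to 0.44, GSTP1 to 0.40, GSTO1 to 0.30 and TXNIP to -0.52.

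**Figure D5:**
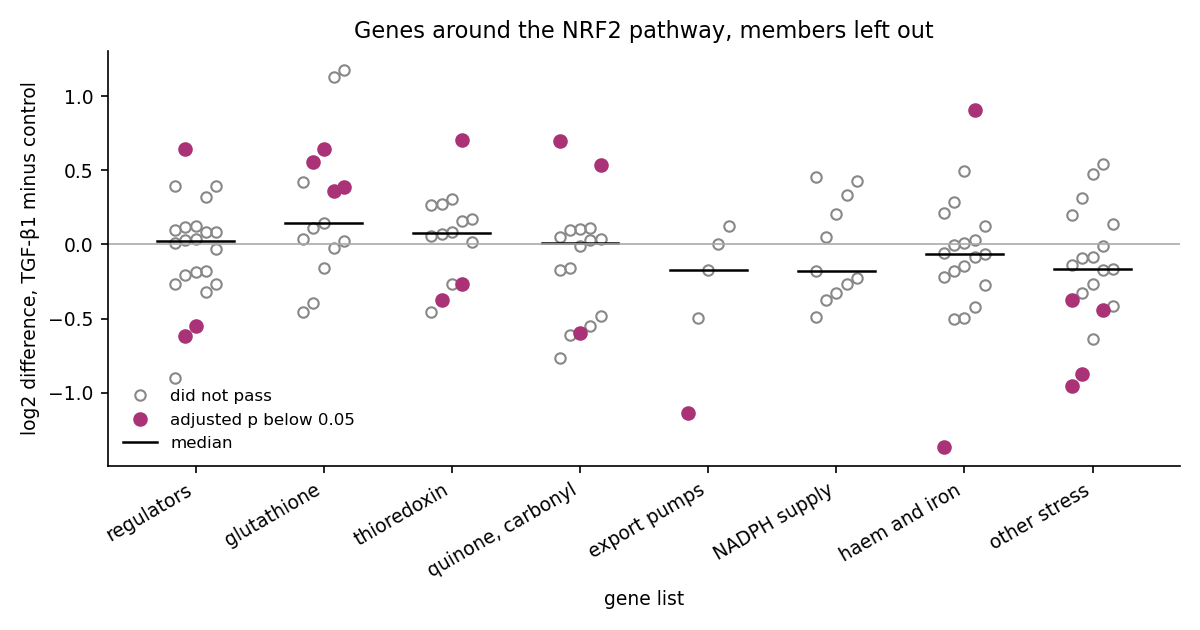
Log2 difference (TGF-β1 minus control) of each tested gene in the 8 lists around the pathway, filled where the adjusted p is below 0.05, with the median of each list as a line. Filled points lie on both sides of 0 in the regulator, thioredoxin, quinone and carbonyl, and haem and iron lists, only above 0 in the glutathione list, only below 0 in the export pump and other stress lists, and nowhere in the NADPH list.

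Over the 4 libraries, the profiles most like that of NFE2L2 were those of ZNF83, SLC35E3 and TMEM168, with Euclidean distances between centred log2 values of 0.0124, 0.0128 and 0.0268. None of these 3 passed the test. For HMOX1 the nearest were NFE2L1-DT, ENSG00000216813 and RPS15AP24 (0.0493, 0.0589 and 0.0595), which rest on 0 to 11 reads per library. With 4 libraries in 2 groups, such likeness describes these libraries only.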

How the data were processed

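The authors deposited 1 table of RPKM values for 25609 genes with versioned Ensembl identifiers and 4 columns, read as RPKM per the file headers. The tools STAR 2.7.1a, bcl2fastq 2.20.0.422 and DESeq2 and the build hg38 appear, without roles, in the submitters' processing notes. For the annotation release, the counter, its strand setting and gene filters, nothing is given in the sources used here. Libraries came from total RNA with a directional kit, per the labels' protocols. Samples were grouped and numbered by title.

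Symbols came from a table of gene names (25312 matched), and positions, types and exon lengths from GENCODE release 29 on hg38 (23853 identifiers of the same version). Value times exon length came to whole reads plus 0.5, times a library constant, for 25498 genes (99.6%, tolerance 0.01 read). Each library was thus scaled to a size of 0.864 to 1.02 times its recovered reads, lower for TGF-β1. The reads of a group's replicates differed by more than sampling noise.

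Genes with a mean of at least 0.5 RPKM entered a linear model of log2(RPKM + 0.5) in limma (version 3.58.1, under R 4.3.3), with a variance trend and Benjamini-Hochberg adjustment over all 16590 genes. Those with an adjusted p below 0.05 are called. The fit was also run on simulated reads, with a fixed level of spread beyond sampling noise for all genes. Those reads used the library sizes that the deposited values imply, so that run cannot check the scaling. Members and lists were chosen with earlier results of these data known. Besides the 10 members, the rule names up to 3 called genes with the smallest p in each list, or where none passed the gene with the smallest p. Alternatives varied the pseudocount, filter, variance trend, scaling, libraries and replicate block.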

Additional observations from a re-analysis of the deposited data

How the results depend on the processing

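The number of called genes was 1513 as reported. It was 977 without the filter on low values, 424 without the variance trend and 3364 with limma-voom, and 574 to 1138 with 1 library left out. The number of the 10 genes called was 0 as reported, where 9.12% of all tested genes were called. It was 1 of the 8 with a mean of at least 2 RPKM (HMOX1), where 16.8% were. After quantile normalisation it was 2 (8.34% of all genes) and with scaling by total recovered reads 2 (9.27%), NFE2L2 and FTH1 both times. With limma-voom it was 4, where 20.4% of all genes were called. Of the wider lists 19 genes were called, 12 without the filter, 2 without the variance trend, 47 with limma-voom and 10 to 15 with 1 library left out. NQO1 changed sign after quantile normalisation (-0.0106) and with scaling by total recovered reads (-0.0321); the cause was not tested. That last scaling moved the median log2 difference of all genes to -0.13, from 0.03, and with it 42.6% of called genes were higher, against 67.1% as reported and 50.4% after quantile normalisation. With the replicate number as a block, 1344 of 16590 genes were called, 0 of the 10 and 20 of the 120 tested genes of the wider lists. Same-numbered libraries hardly deviated together (r = 0.0261 over 16590 genes). This cannot exclude pairs, since genes on few reads, where sampling noise is large, are among them. The numbers were not taken as pairs. The block ended the calls of TXNIP and ABCC4 (limma adjusted p = 0.0522 and 0.0719) and gave 3, for TALDO1 (0.0454), CHAC1 (0.0281) and SPP1 (0.0194), the last 2 named after their values were seen. Planned edgeR and DESeq2 fits were not run, because the table holds RPKM. The 2 wider-list genes called without the variance trend were SLC48A1 and ABCC4. GCLC and SRXN1 had only 3 to 80 reads per library and wide intervals, so changes of these 2 genes may have gone unseen. With 1 library left out of a group of 2, the lone library is assumed to vary like the other group.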

Other observations

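Genes of other stress programmes, several of them reported as NRF2 targets, gave 0 rises and 4 falls among 19 tested (median log2 difference -0.16). Of all 16590 genes tested, 1015 rose and 498 fell. Like the other lists, this one was not tested as a set. SLC6A6, the taurine carrier, fell from 17.6 and 15.2 RPKM in the controls to 8.73 and 8.68 RPKM with TGF-β1 (log2 -0.87, limma adjusted p = 0.0133). MT1E, a metallothionein that binds zinc and copper, fell from 115 and 133 to 55.0 and 73.6 RPKM (log2 -0.95, limma adjusted p = 0.0270), a call lost without control replicate 2 (0.0607). HSPA1B, an inducible heat shock protein 70 gene, fell from 34.2 and 31.9 to 24.9 and 23.5 RPKM (log2 -0.44, limma adjusted p = 0.0323, and 0.0827, 0.0869 and 0.141 without control replicate 1, TGF-β1 replicate 1 and TGF-β1 replicate 2). The fourth was TXNRD1, described above and also counted in the thioredoxin list. MT1E and HSPA1B belong to families of near-identical genes, so their reads may be split among copies. MT1X and MT2A, the other metallothioneins of this list, did not pass. Their log2 differences were 0.54 and -0.09 (limma adjusted p = 0.103 and 0.647), and they were named after their values were seen.

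Of 5 tested export pumps, 0 rose and 1 fell (median log2 difference -0.17), where 498 of all 16590 genes tested fell. ABCC4, a pump for organic anions and cyclic nucleotides, fell from 2.02 and 2.22 to 0.631 and 0.747 RPKM (log2 -1.14, limma adjusted p = 0.0422), on 53, 81, 20 and 27 reads. The call did not hold when any 1 library was dropped (limma adjusted p = 0.102 to 0.154).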
